A study of Mus musculus with 32 samples.

Results

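The genes described here build and police the secretory pathway of the endoplasmic reticulum (ER) in mouse liver, and their transcripts were compared between mice that had lost Gclc and mice that had kept it. Gclc encodes the catalytic part of glutamate-cysteine ligase, whose reaction limits the rate of glutathione synthesis. The set was named by symbol and holds 40 of the 20821 gene symbols measured. The symbols were listed with earlier results of these data known. It covers 9 chaperones of the Hsp70 and Hsp90 systems with their partners, 6 lectin chaperones and disulfide isomerases, 7 genes of ER-associated degradation, 7 of the translocon, 3 of signal peptidase, 4 of the oligosaccharyltransferase, and 3 stress sensors with Xbp1.

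RNA-seq was performed on liver of 4 Gclc WT and 4 Gclc KO mice. Gclc WT mice carried floxed Gclc (Gclc f/f) without a recombinase, and Gclc KO mice carried Gclc f/f with Rosa26-CreERT2. Both genotypes received tamoxifen at 150 mg/kg by intraperitoneal injection for 5 days, and liver was collected 14 days later. The dose is that of the labels, and the methods of the study state a somewhat higher one. The Rosa26 locus is active in most tissues, so Gclc was deleted in the whole animal and not in hepatocytes alone. The labels name no group that carried CreERT2 without floxed Gclc, so the recombinase itself, once active, cannot be told apart from the deletion. Each mouse was measured in 4 libraries, which were averaged, and the mouse is the replicate (n = 4 per genotype). Values are TPM, a transcript abundance corrected for length and library total, from which the sequencing depth cannot be read. In bulk tissue, fewer cells of a type and less RNA per cell cannot be told apart.

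Gclc mRNA was lower in every Gclc KO mouse, at 22.1 ± 5.58 TPM against 103 ± 28.5 TPM in the Gclc WT livers (mean ± SD of 4 mice; log2 fold change −2.17, SE 0.23, limma adjusted p = 0.000612). Hepatocyte markers were abundant in every mouse. Their 8 genes summed to 69122 (Gclc WT 1) to 96407 TPM in Gclc WT mice and 80841 (Gclc KO 2) to 144030 TPM in Gclc KO mice. Of the 8, 1 was called higher and 1 lower, with a median log2 fold change of −0.02. Some livers stood apart. In Gclc WT 1, 12 exocrine pancreas markers summed to 368 TPM, against 14.5 to 37.3 TPM in the other Gclc WT mice and 6.86 to 18.9 TPM in the Gclc KO mice, and 7 of the 12 were at 0 in every other mouse. Gclc WT 3 had the highest sum of 10 neutrophil and monocyte markers (518 TPM, against 79.4 to 152 TPM in the other Gclc WT mice and 139 to 259 TPM in the Gclc KO mice). Kupffer cell markers summed to 300.4 to 823 TPM in Gclc WT mice and 864 to 1448 TPM in Gclc KO mice. Of these 10 markers 5 were called higher, beside 12.8% of all genes. B and plasma cell markers summed to 75.9 to 136 and 39.5 to 61.4 TPM, with the plasma cell receptor Tnfrsf17 at 0 throughout. Only 2 of them were tested, and both were called lower, beside 8.61% of all genes. Their listed markers Ighm and Igkc were not found by symbol. Erythroid markers summed to 923 TPM in Gclc WT 1, 2664 to 3740 TPM in the other Gclc WT mice and 307 to 1262 TPM in the Gclc KO mice. Of the 5 tested, 2 were called lower, beside 8.61% of all genes. Xist was present in Gclc WT 3 (25.8 TPM), Gclc KO 2 (30.2 TPM) and Gclc KO 3 (22.8 TPM), and the others had 0.02 TPM or less. The part of these differences in the results was not tested, except where values without a mouse are given.

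Proteins bound for secretion, for membranes or for lysosomes enter the ER through the Sec61 channel, lose their signal peptide, receive N-linked glycans and are folded by chaperones and disulfide isomerases. Those that fail to fold are returned to the cytosol and degraded. When unfolded protein builds up, the membrane sensors IRE1, PERK and ATF6 start the unfolded protein response. Of its transcription factors, XBP1 (after splicing of its mRNA by IRE1) and ATF6 raise chaperone, degradation and translocation genes. Hepatocytes secrete most plasma proteins and are rich in this machinery.

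Promoter sequence is shown because the members differ in whether their promoters match the letters of the best known control element of the response. ATF6 acts with the factor NF-Y at the ER stress response element (ERSE), searched here on both strands as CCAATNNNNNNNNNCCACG, and at the related ERSE-II, searched as ATTGG and CCACG with any base between them. RefSeq promoters (GRCm38.p6, from 250 bases before to 50 bases after the start) matched 32 of the 40 members by symbol. ERSE was found in 9 of these (28.1%), against 0.174% of the 8630 tested genes with a promoter and 0.137% of all 27025. ERSE-II was found in 2, Herpud1 and Dnajb11 (6.25%, against 0.0927% of tested genes). The element was first described on promoters of this kind, so these shares are no independent finding. The matched letters are in capitals, with 15 bases on each side, read 5′ to 3′ on the gene's strand. Where the element lies in reverse orientation the capitals read CGTGG and ATTGG. The stretches were chosen to show genes of different roles that hold the element and had different measured values:
Hspa5, chr2:34772010-34772058, plus strand: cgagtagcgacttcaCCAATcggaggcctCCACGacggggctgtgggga
Hsp90b1, chr10:86705518-86705566, minus strand: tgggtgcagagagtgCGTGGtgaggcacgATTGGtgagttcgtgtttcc
Calr, chr8:84847060-84847108, minus strand: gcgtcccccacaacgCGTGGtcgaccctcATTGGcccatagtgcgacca
Pdia6, chr12:17266476-17266524, plus strand: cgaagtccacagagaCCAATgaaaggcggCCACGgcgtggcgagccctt
Canx, chr11:50325785-50325833, minus strand: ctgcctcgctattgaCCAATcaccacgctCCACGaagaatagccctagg
Herpud1, chr8:94386362-94386402, plus strand: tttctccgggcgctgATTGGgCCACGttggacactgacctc
Syvn1, chr19:6046517-6046565, plus strand: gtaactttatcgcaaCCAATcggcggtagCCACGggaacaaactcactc

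The other matches were in Dnajb11 (after the start), Dnajc3, Creld2, Derl3 and a further one in Hsp90b1. By role, ERSE or ERSE-II was found in 5 of 7 Hsp70 and Hsp90 system promoters, 3 of 6 of lectin chaperones and isomerases and 3 of 6 of degradation genes. It was found in 0 of 5 translocon, 0 of 2 signal peptidase, 0 of 3 oligosaccharyltransferase and 0 of 3 sensor promoters. The letters of the unfolded protein response element, TGACGTGG, were in 0 of the 32 members and 0.985% of tested genes. The core of the antioxidant response element, TGACNNNGC, at which NRF2 acts, was in 10 of the 32 (31.2%) against 17.1% of tested genes. No ERSE or ERSE-II match in a member overlapped another match. A match of letters is not a binding site. Only exact letters in this window were searched, so a promoter without a match is not shown to lack the element.

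**Figure D1:**
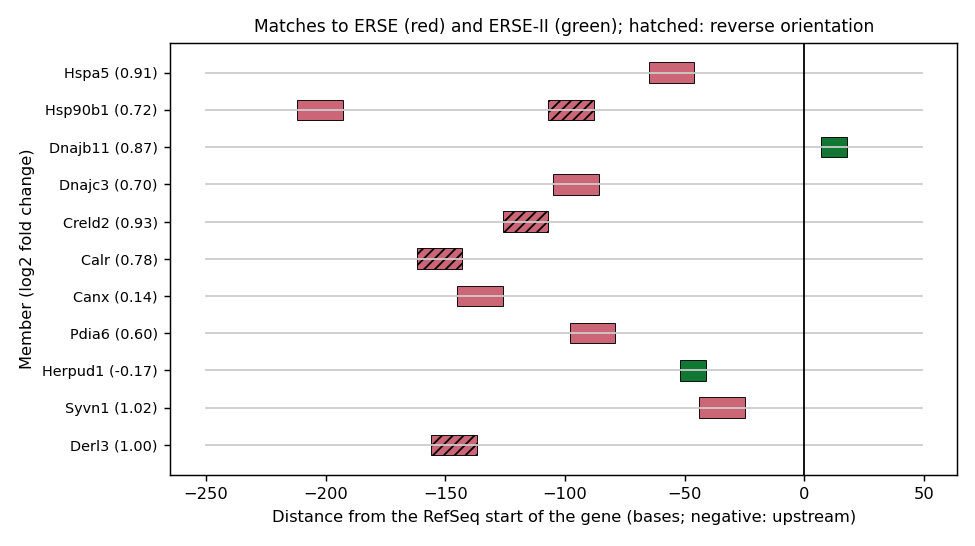
Matches to ERSE (red) and ERSE-II (green) in the RefSeq promoters of the 11 members that hold one, by distance in bases from the start of the gene, with hatching for the reverse orientation and the log2 fold change of each member in brackets. All matches but that of Dnajb11 lie before the start, and the fold changes beside them run from −0.17 (Herpud1) to 1.02 (Syvn1).

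Transcripts of the ER folding and entry machinery were higher in Gclc KO livers. All 40 members passed the filter of a mean of at least 1 TPM, 26 were called higher, 0 lower, and 14 did not pass the test (limma, Benjamini-Hochberg adjusted p under 0.05 over 11284 genes). Over all genes tested, 12.8% were called higher and 8.61% lower. The median log2 fold change of the members was 0.66, or 1.58-fold, beside 0.09 over all genes. In 25 members every Gclc KO mouse lay above every Gclc WT mouse, as did 14.5% of all genes, and in 0 members every Gclc KO mouse lay below, as did 10.2% of all genes. Fold changes are on the log2(TPM + 1) scale and are therefore too small for genes of low level. P-values measure the spread between these mice.

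The size of the count depended on single mice. Without Gclc WT 1, the liver with pancreas transcripts, 33 members were called (8.35% of all genes), and 34 members, beside 16.3% of all genes, had every Gclc KO mouse above the remaining Gclc WT mice. Without Gclc WT 2, 11 members were called (6.19% of all genes), without Gclc WT 4 there were 14 (7.21%), without Gclc KO 1 there were 16 (7.89%) and without Gclc KO 4 there were 17 (7.59%). The count was 20 to 26 without Gclc WT 3, Gclc KO 2 or Gclc KO 3 (8.80% to 16.4% of all genes). Scaling by a trimmed mean of M values gave 21 members, and it turned the balance over all genes from 1439 higher and 972 lower (59.7% of calls higher) to 1190 higher and 1474 lower (44.7%). With this scaling Hyou1, Pdia3, Sec61g, Spcs3 and Eif2ak3 lost their call (adjusted p = 0.0503 to 0.190). Batch 1 alone gave 27 members (11.9% of all genes) and batch 2 alone 23 (9.05%), each with all 8 mice. With Xist as a covariate 30 members were called (12.9% of all genes). The 5 mice without Xist gave 20 members (15.6% of all genes). Of the Gclc KO mice, this last fit kept only Gclc KO 1 and Gclc KO 4. In each of these fits 0 members were called lower.

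The order of the mice was similar in many members. Gclc WT 1 was the highest Gclc WT mouse in 32 of the 40 members and Gclc WT 4 the lowest in 24. Among Gclc KO mice, Gclc KO 4 was the highest in 31 and Gclc KO 2 the lowest in 26. The SD among the 4 libraries of a mouse had a median of 0.071 on the log2 scale over the members, against 0.24 among Gclc WT mice and 0.19 among Gclc KO mice.

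**Figure D2:**
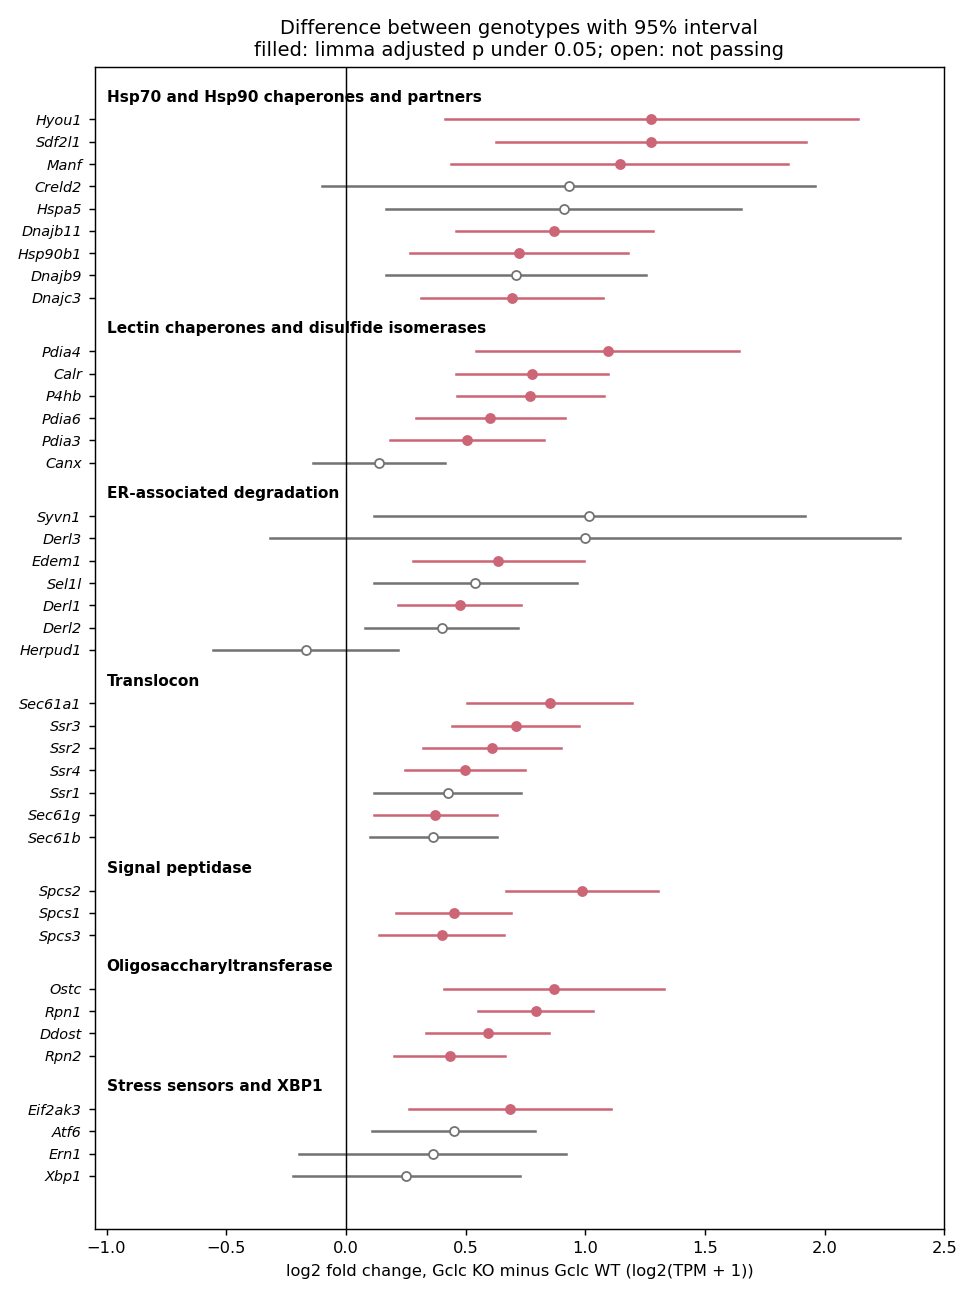
Log2 fold change of each of the 40 members, Gclc KO minus Gclc WT on log2(TPM + 1), with its 95% interval from limma (n = 4 mice per genotype), by role; filled red points passed the test and open grey points did not. All points but that of Herpud1 at −0.17 lie above 0, and the widest intervals belong to Derl3, Creld2, Syvn1 and Hyou1.

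Chaperones of the Hsp70 and Hsp90 systems had the largest differences and the widest spread. Of 9 genes, 6 were called higher (Dnajb11, Sdf2l1, Dnajc3, Manf, Hsp90b1 and Hyou1), beside 12.8% of all genes. Log2 fold changes ran from 0.70 to 1.28 with a median of 0.91. Hspa5 encodes BiP, the Hsp70 of the ER lumen and the most used marker of ER stress. Its values were 1128, 436, 527 and 403 TPM in Gclc WT mice, numbered 1 to 4 in this order here and throughout, against 1105, 811, 937 and 1556 TPM in Gclc KO mice, in the same order. Gclc WT 1 was above 3 of the 4 Gclc KO mice, while the other Gclc WT mice were below all of them. The log2 fold change of Hspa5 was 0.91 (SE 0.33, adjusted p = 0.0776), and without Gclc WT 1 it was 1.24 (adjusted p = 0.0143). Leaving out any other single mouse gave no call for Hspa5 (adjusted p = 0.0775 to 0.190).

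BiP works with J-domain partners that bring it clients. One of them, ERdj3, is encoded by Dnajb11, which was 129, 85.2, 91.9 and 74.9 TPM in Gclc WT mice, against 159.6, 142, 182 and 209 TPM in Gclc KO mice. The genotypes did not overlap, and the log2 fold change was 0.87 (SE 0.18, adjusted p = 0.0113). Sdf2l1, which forms a complex with ERdj3, was 101, 38.7, 49.7 and 43.0 TPM in Gclc WT mice, against 106, 113.9, 145 and 172 TPM in Gclc KO mice. All Gclc KO values were higher, by a narrow margin over Gclc WT 1, with a log2 fold change of 1.27 (SE 0.29, adjusted p = 0.0148). Dnajc3 encodes the J protein p58IPK. It was 123, 93.04, 109 and 82.3 TPM in Gclc WT mice, against 166, 125, 178 and 192 TPM in Gclc KO mice, with no overlap (log2 fold change 0.70, SE 0.17, adjusted p = 0.0200).

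Manf encodes a BiP-binding protein that is secreted under ER stress. Its values of 160.4, 59.8, 75.7 and 53.5 TPM in Gclc WT overlapped with 178, 141, 167 and 228 TPM in Gclc KO mice, again through Gclc WT 1 alone, and it was called (log2 fold change 1.14, SE 0.31, adjusted p = 0.0303). Hsp90b1, the Hsp90 of the ER (GRP94), and Hyou1, a nucleotide exchange factor for BiP, were called with log2 fold changes of 0.72 (SE 0.20, adjusted p = 0.0331) and 1.28 (SE 0.38, adjusted p = 0.0419). Dnajb9, the J protein ERdj4 that also holds IRE1 in check, had 0.71 (SE 0.24, adjusted p = 0.0648). Creld2, an ER protein with isomerase activity that is induced by ER stress, had 0.93 (SE 0.46, adjusted p = 0.175), with 159.6 TPM in Gclc WT 1 against 38.0 to 45.3 TPM in the other Gclc WT mice and 72.2 to 196 TPM in Gclc KO mice. Without Gclc WT 1 all 9 genes were called, beside 8.35% of all genes, with a median of 1.24. Without Gclc WT 2, beside 6.19% of all genes, only Dnajb11 and Sdf2l1 were called (adjusted p = 0.0401 and 0.0481). These 2 kept their call without any single mouse. Dnajc3 lost it without Gclc WT 2, WT 4, KO 3 or KO 4 (adjusted p = 0.0528 to 0.0631). Manf and Hsp90b1 lost it without Gclc WT 2, WT 4, KO 1, KO 3 or KO 4 (adjusted p = 0.0553 to 0.0979), and Hyou1 without these or Gclc WT 3 (adjusted p = 0.0595 to 0.115).

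**Figure D3:**
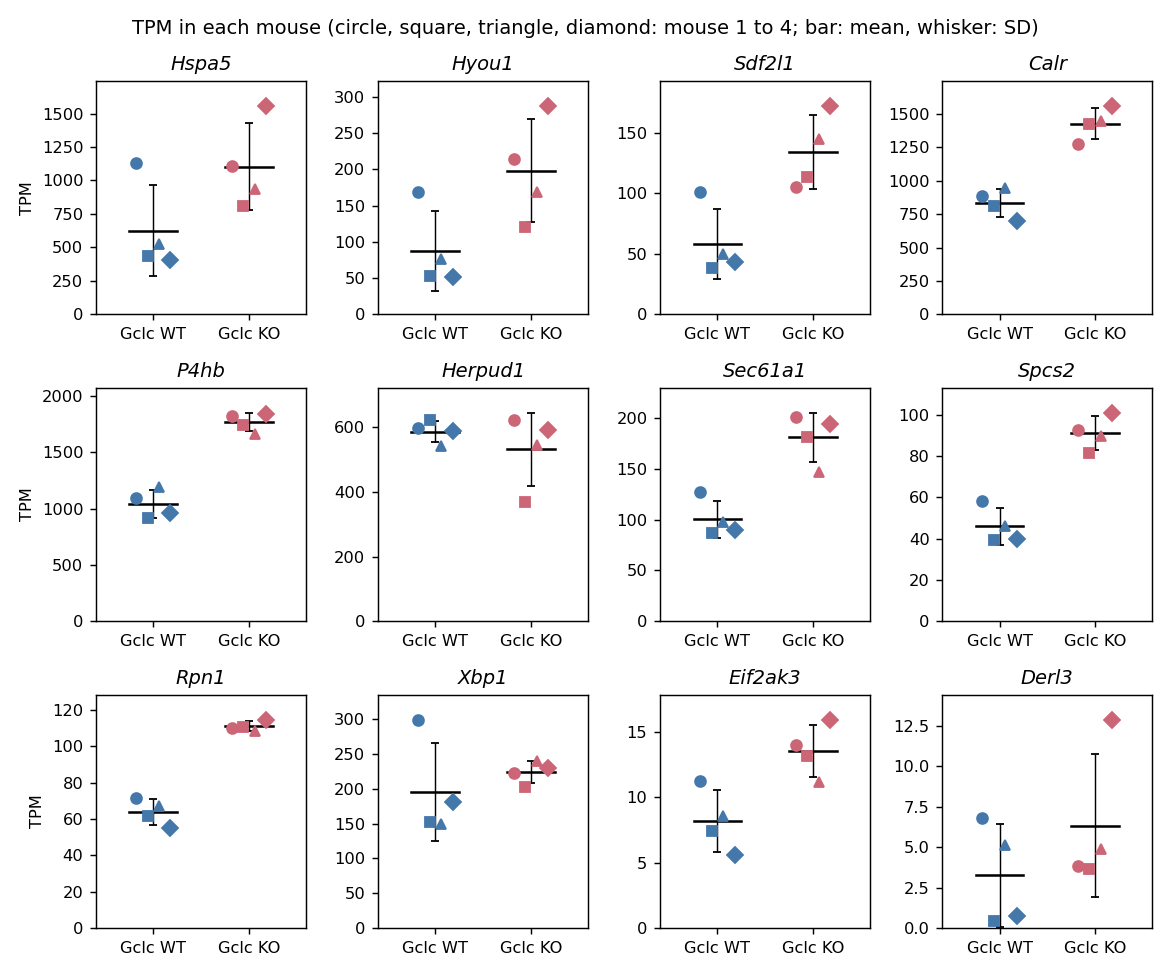
TPM of 12 members in each mouse (circle, square, triangle and diamond for mice 1 to 4 of a genotype; blue for Gclc WT, red for Gclc KO), with the mean and SD of 4 mice and axes that start at 0. Hspa5, Hyou1 and Xbp1 overlap through Gclc WT 1, Calr, P4hb, Sec61a1, Spcs2 and Rpn1 are separated, and Herpud1 shows no separation.

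Of the 6 lectin chaperones and disulfide isomerases 5 were called higher, all but Canx, beside 12.8% of all genes. In the same 5 every Gclc KO mouse lay above every Gclc WT mouse, as in 14.5% of all genes. The median SD among Gclc WT mice was 0.20 on the log2 scale in this role, against 0.62 in the Hsp70 and Hsp90 systems. P4hb encodes protein disulfide isomerase, which forms and rearranges disulfide bonds, and had the highest mean of all members in both genotypes. It was 1092, 916, 1195 and 965 TPM in Gclc WT mice, against 1826, 1746, 1666 and 1840 TPM in Gclc KO mice. The lowest Gclc KO value was well above the highest Gclc WT value, and the log2 fold change was 0.77 (SE 0.14, adjusted p = 0.00546).

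Calr encodes calreticulin, the soluble lectin that holds newly made glycoproteins until they fold. It was 886, 814, 944 and 701 TPM in Gclc WT mice, against 1276, 1428, 1448 and 1561 TPM in Gclc KO mice (log2 fold change 0.78, SE 0.14, adjusted p = 0.00616). Canx, chosen after its values were seen, encodes calnexin, the membrane-bound counterpart, and was 187, 172, 181 and 142 TPM in Gclc WT mice, against 197, 166, 196 and 189 TPM in Gclc KO mice. Here the genotypes overlapped, and the log2 fold change was 0.14 with a 95% interval of −0.14 to 0.41 (adjusted p = 0.45). The interval of Calr began at 0.46 and so did not meet that of Canx, and the difference between the genes was not tested. Both promoters hold the ERSE letters shown above.

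Among the other isomerases, Pdia4 (ERp72) was 247, 117, 172 and 116 TPM in Gclc WT mice, against 305, 293, 321 and 424 TPM in Gclc KO mice (log2 fold change 1.09, SE 0.24, adjusted p = 0.0141). Pdia6 (P5) was 211, 155, 194 and 157 TPM in Gclc WT mice, against 251, 246, 291 and 297 TPM in Gclc KO mice (log2 fold change 0.60, SE 0.14, adjusted p = 0.0156). Neither gene overlapped between genotypes. Pdia3 (ERp57), which works with both lectins, had a log2 fold change of 0.51 (SE 0.14, adjusted p = 0.0340). P4hb, Calr and Pdia4 kept their call without any single mouse. Pdia6 lost it without Gclc WT 2 (adjusted p = 0.0553), and Pdia3 without Gclc WT 2, WT 4, KO 1, KO 3 or KO 4 (adjusted p = 0.0528 to 0.104).

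Genes of ER-associated degradation had differences of unequal size. Of 7 genes 2 were called higher (beside 12.8% of all genes), 0 lower and 5 not, with log2 fold changes from −0.17 to 1.02 and a median of 0.54. The called genes were Derl1, whose product helps move proteins out of the ER, and Edem1, whose product recognises misfolded glycoproteins. Derl1 was 67.7, 58.1, 66.1 and 57.8 TPM in Gclc WT mice, against 89.4, 81.4, 78.2 and 100.2 TPM in Gclc KO mice (log2 fold change 0.47, SE 0.11, adjusted p = 0.0195). Edem1 was 71.7, 50.7, 71.9 and 45.8 TPM in Gclc WT mice, against 91.7, 86.8, 90.8 and 99.5 TPM in Gclc KO mice (log2 fold change 0.64, SE 0.16, adjusted p = 0.0221). Both were free of overlap. Both also lost the call without Gclc WT 2, WT 4 or KO 1 (adjusted p = 0.0512 to 0.0700), and Edem1 without Gclc KO 4 as well (adjusted p = 0.0557).

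Sel1l and Syvn1 encode the adaptor and the ubiquitin ligase (HRD1) at the core of this pathway. Sel1l was 67.1, 42.9, 55.1 and 38.7 TPM in Gclc WT mice, against 69.3, 63.3, 68.7 and 93.4 TPM in Gclc KO mice, which overlapped through Gclc WT 1 (log2 fold change 0.54, SE 0.19, adjusted p = 0.0700). For Syvn1 the log2 fold change was 1.02 (SE 0.40, adjusted p = 0.0996), with 86.7 TPM in Gclc WT 1, 24.1 to 32.7 TPM in the other Gclc WT mice and 54.3 to 123 TPM in Gclc KO mice. Without Gclc WT 1 both were called, at 0.68 (adjusted p = 0.0347) for Sel1l and 1.42 (adjusted p = 0.0164) for Syvn1. With any other single mouse left out neither was called (adjusted p = 0.0699 to 0.175 for Sel1l and 0.0988 to 0.229 for Syvn1).

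Herpud1 encodes HERP, an ER membrane partner of HRD1 that ER stress induces strongly in cultured cells, and it was the 1 member with a negative difference. It was 597, 622, 542 and 588 TPM in Gclc WT mice, against 623, 370, 545 and 591 TPM in Gclc KO mice. The ranges overlapped almost completely, apart from the low value of Gclc KO 2, and the log2 fold change was −0.17 with a 95% interval of −0.55 to 0.22 (adjusted p = 0.517). A rise of the median size of the chaperones, 0.91, lies outside this interval. Derl2, another derlin, was 41.7, 40.2, 38.6 and 37.4 TPM in Gclc WT mice, against 54.4, 39.7, 54.0 and 64.3 TPM in Gclc KO mice. Only Gclc KO 2 fell within the Gclc WT range, and the log2 fold change was 0.40 (SE 0.14, adjusted p = 0.0728). Derl2 was called without Gclc KO 2 (adjusted p = 0.0112), but not without any other single mouse (adjusted p = 0.105 to 0.160). Derl3, the derlin with the lowest level of all members, was 6.78, 0.398, 5.16 and 0.733 TPM in Gclc WT mice, against 3.83, 3.67, 4.91 and 12.9 TPM in Gclc KO mice. Gclc KO 1, 2 and 3 lay within the range of the Gclc WT mice (log2 fold change 1.00, SE 0.59, adjusted p = 0.250).

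Genes of protein entry and N-glycosylation (translocon, signal peptidase and oligosaccharyltransferase) together had a smaller median difference than the Hsp70 and Hsp90 systems. Their spread among mice was smaller as well. The oligosaccharyltransferase alone had a median log2 fold change of 0.69, as did the lectin chaperones and isomerases. Of the 14 entry and glycosylation genes 12 were called higher, beside 12.8% of all genes, with a median log2 fold change of 0.54. In 13 every Gclc KO mouse lay above every Gclc WT mouse, as in 14.5% of all genes. Sec61a1 encodes the pore of the Sec61 channel. It was 127, 87.2, 98.1 and 89.4 TPM in Gclc WT mice, against 201, 182, 147 and 194 TPM in Gclc KO mice (log2 fold change 0.85, SE 0.15, adjusted p = 0.00577). Its values did not overlap between genotypes. Of the smaller channel subunits, Sec61g was called, with a log2 fold change of 0.37 (SE 0.11, adjusted p = 0.0443), and Sec61b was not, with 0.36 (SE 0.12, adjusted p = 0.0542). Neither overlapped between genotypes.

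The Ssr genes encode the 4 subunits of the translocon-associated protein complex, which helps certain signal sequences through the channel. Ssr3 was 209, 186, 183 and 159 TPM in Gclc WT mice, against 288, 279, 317 and 321 TPM in Gclc KO mice (log2 fold change 0.71, SE 0.12, adjusted p = 0.00446). Ssr2 was 105, 86.7, 84.1 and 97.8 TPM in Gclc WT mice, against 153, 129, 126 and 164 TPM in Gclc KO mice (0.61, SE 0.13, adjusted p = 0.0112). Neither gene showed overlap. Ssr4 was 171, 143, 151 and 182 TPM in Gclc WT mice, against 230.2, 218, 237 and 225 TPM in Gclc KO mice, also without overlap (0.50, SE 0.11, adjusted p = 0.0143). Ssr1 was the exception, with 28.8 TPM in Gclc KO 3 against 29.0 TPM in Gclc WT 3 (0.42, SE 0.14, adjusted p = 0.0533). Sec61a1, Ssr2 and Ssr3 kept their call without any single mouse. Ssr4 lost it without Gclc WT 2 (adjusted p = 0.0535), and Sec61g lost it without any 1 of the mice other than Gclc WT 1 (adjusted p = 0.0657 to 0.122).

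Signal peptidase removes the signal sequence during entry. Its subunit gene Spcs2 rose from 58.3, 39.4, 46.1 and 39.8 TPM in Gclc WT to 92.5, 81.2, 89.8 and 101 TPM in Gclc KO mice (log2 fold change 0.99, SE 0.14, adjusted p = 0.00227). Spcs1 and Spcs3 belong to the same complex and had smaller differences. Spcs1 was 102, 91.5, 96.7 and 85.1 TPM in Gclc WT mice, against 137, 114.4, 131 and 132 TPM in Gclc KO mice (0.45, SE 0.11, adjusted p = 0.0177). Spcs3 was 52.05, 42.8, 45.6 and 40.4 TPM in Gclc WT mice, against 59.9, 52.2, 62.6 and 65.1 TPM in Gclc KO mice (0.40, SE 0.12, adjusted p = 0.0372). The margin of Spcs3 was 52.05 TPM in Gclc WT 1 to 52.2 TPM in Gclc KO 2, the narrowest of the 3. Spcs2 kept its call without any single mouse. Spcs1 lost it without Gclc WT 2, WT 4 or KO 1 (adjusted p = 0.0517 to 0.0579), and Spcs3 without these, Gclc WT 3, KO 3 or KO 4 (adjusted p = 0.0531 to 0.103).

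The oligosaccharyltransferase attaches the N-linked glycan as the chain enters. Rpn1, ribophorin I, had the smallest p-value of all members. It was 71.7, 61.5, 67.3 and 55.1 TPM in Gclc WT mice, against 109.9, 110.8, 108 and 115 TPM in Gclc KO mice, which lay close together (log2 fold change 0.79, SE 0.11, adjusted p = 0.00177). Ddost (OST48), a core subunit, was 87.5, 79.6, 83.8 and 74.1 TPM in Gclc WT mice, against 127, 107, 120.1 and 139.9 TPM in Gclc KO mice (0.59, SE 0.11, adjusted p = 0.00773). Ostc, which ties the enzyme to the translocon, was 94.1, 51.6, 74.9 and 57.0 TPM in Gclc WT mice, against 139, 103, 109 and 152 TPM in Gclc KO mice (0.87, SE 0.20, adjusted p = 0.0174). All values in Gclc KO mice were above those in Gclc WT mice for these genes. Rpn2, ribophorin II, was 97.04, 95.1, 113 and 105 TPM in Gclc WT mice, against 137, 137, 130.3 and 151 TPM in Gclc KO mice (0.43, SE 0.10, adjusted p = 0.0185), likewise without overlap. Rpn1 and Ddost kept their call without any single mouse, Rpn2 lost it without Gclc WT 2 (adjusted p = 0.0653) and Ostc without Gclc WT 2 or WT 4 (adjusted p = 0.0535 and 0.0524).

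The stress sensors and Xbp1 had a median log2 fold change of 0.41. Sensors are switched on by changes in the protein and XBP1 by splicing of its mRNA, neither of which gene-level TPM show. Of the 4 genes 1 was called higher, beside 12.8% of all genes. This was Eif2ak3, which encodes PERK, the kinase that slows translation. It was 11.2, 7.45, 8.57 and 5.57 TPM in Gclc WT mice, against 14.0, 13.1, 11.2 and 15.9 TPM in Gclc KO mice. Gclc KO 3 lay at the level of Gclc WT 1, the other Gclc KO mice were higher, and the log2 fold change was 0.69 (SE 0.19, adjusted p = 0.0304). The call was lost without Gclc WT 2, WT 4, KO 1, KO 2 or KO 4 (adjusted p = 0.0567 to 0.0820).

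Atf6, the sensor that is cut to release a transcription factor, was 24.9, 22.0, 25.2 and 23.0 TPM in Gclc WT mice, against 37.3, 25.6, 29.4 and 41.3 TPM in Gclc KO mice. The genotypes were just separated, by Gclc KO 2, and the log2 fold change was 0.45 (SE 0.15, adjusted p = 0.0616). Atf6 was called without Gclc KO 2 (adjusted p = 0.0221), but not without any other single mouse (adjusted p = 0.0693 to 0.150). Ern1, which encodes IRE1 alpha, was 22.6, 18.4, 12.1 and 13.7 TPM in Gclc WT mice, against 22.1, 15.5, 17.8 and 32.5 TPM in Gclc KO mice. These ranges overlapped, and the log2 fold change was 0.36 with a 95% interval of −0.19 to 0.92 (adjusted p = 0.324). Total Xbp1 mRNA was 299, 152, 149 and 182 TPM in Gclc WT mice, against 223, 202, 239.6 and 230 TPM in Gclc KO mice. Gclc WT 1 was the highest of all 8 mice and the other Gclc WT mice were the lowest. The log2 fold change of 0.25 (SE 0.21, adjusted p = 0.419) became 0.48 (adjusted p = 0.0340) without Gclc WT 1. Leaving out any other single mouse gave no call for Xbp1 (adjusted p = 0.393 to 0.690).

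Chaperones, degradation and translocon genes thus differed in size, in spread and in how far 1 mouse counted. The median log2 fold change was 0.91 for the Hsp70 and Hsp90 systems, 0.69 for lectin chaperones and isomerases, 0.54 for degradation, 0.50 for the translocon, 0.45 for signal peptidase, 0.69 for the oligosaccharyltransferase and 0.41 for sensors and Xbp1. The median SD among Gclc WT mice was 0.62 for the Hsp70 and Hsp90 systems, 0.38 for sensors and Xbp1, 0.33 for degradation, 0.20 for lectin chaperones and isomerases, 0.16 for the translocon, 0.15 for signal peptidase and 0.14 for the oligosaccharyltransferase, beside 0.20 over all genes tested. Gclc WT 1 exceeded the mean of the other Gclc WT mice by a median of 1.20 on the log2 scale in the first role, 0.60 in sensors and Xbp1, 0.37 in degradation and 0.19 to 0.27 in the other roles. Without Gclc WT 1 the calls of degradation genes went from 2 to 4 and those of the translocon from 5 to 6, while calls over all genes went from 12.8% to 8.35%. Without Gclc WT 2, with 6.19% of all genes called higher, 0 degradation and 3 translocon genes were called, and degradation calls were also 0 without Gclc WT 4 or KO 1. Members are not replicates, so the differences between roles are given without a test.

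The mean log2(TPM + 1) over the 9 Hsp70 and Hsp90 system genes was 7.75, 6.66, 6.90 and 6.51 in Gclc WT and 7.89, 7.53, 7.84 and 8.35 in Gclc KO mice. Gclc WT 1 thus lay above Gclc KO 2. Over the 7 translocon genes it was 6.82, 6.53, 6.57 and 6.60 in Gclc WT and 7.24, 7.16, 7.07 and 7.24 in Gclc KO mice, without overlap. For the 7 degradation genes the means were 6.06, 5.28, 5.74 and 5.24 in Gclc WT and 6.13, 5.82, 6.04 and 6.55 in Gclc KO mice, where Gclc WT 1 again reached the Gclc KO range. Members with ERSE or ERSE-II letters had a median log2 fold change of 0.78 (11 genes, 5 called higher). Those with a promoter but no match to either had 0.54 (21 genes, 14 called higher), beside 12.8% of all genes called higher.

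**Figure D4:**
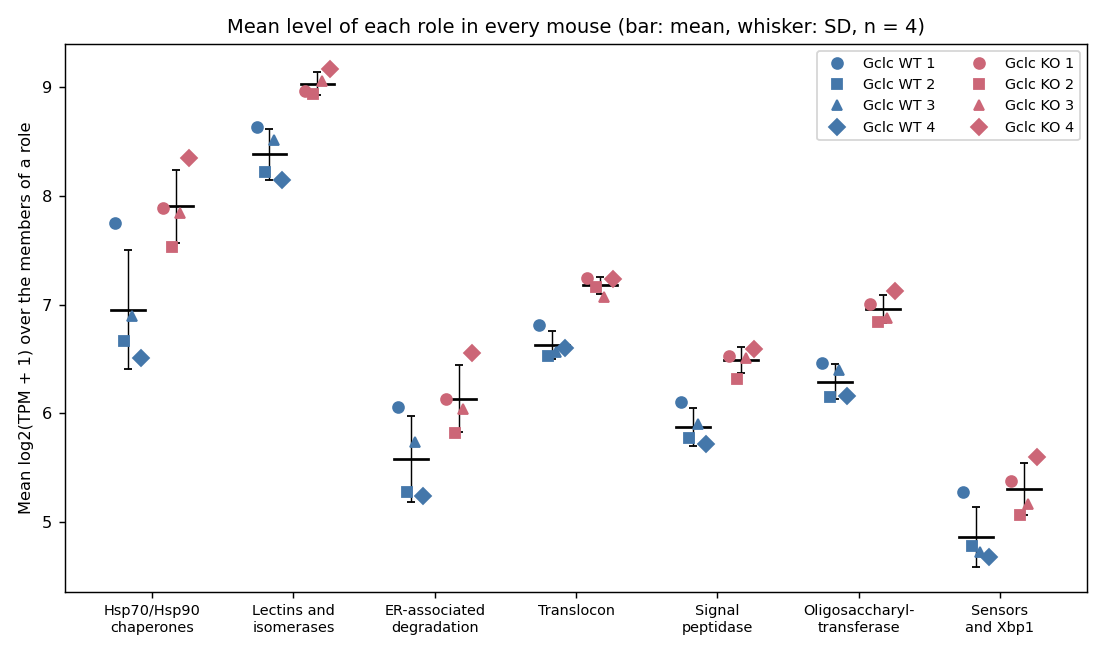
Mean log2(TPM + 1) over the members of each role in every mouse (symbols for mice 1 to 4; blue for Gclc WT, red for Gclc KO), with the mean and SD of 4 mice. Gclc WT 1 (blue circle) lies 1.20 above the other Gclc WT mice in the median gene of the Hsp70 and Hsp90 systems. It overlaps with Gclc KO mice there and in degradation and the sensors. Means of lectin chaperones and isomerases, translocon, signal peptidase and oligosaccharyltransferase are separated.

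Part of the wider pathway was called higher with all mice included. In 6 further lists of ER and transport genes 172 genes were tested, of which 51 were higher and 5 lower, beside the 12.8% and 8.61% of all genes. Calls in either direction numbered 56, beside 21.4% of all genes tested. They fell to 23 without Gclc WT 2, where 698 of 11284 genes were called higher and 557 lower. Without Gclc WT 4 they numbered 28 (814 higher and 663 lower over all genes). The number was 32 without Gclc KO 1 (890 and 755) and 30 without Gclc KO 4 (857 and 832). Calls over all genes thus fell as well, and without Gclc WT 2 the share called higher was 6.19%. Among other oxidoreductases and folding factors 6 of 26 were higher and 0 lower, with a median log2 fold change of 0.14. Only 1 of the 26 was called higher without Gclc WT 2, which is below the 6.19% of all genes. Dnajc10 encodes ERdj5, a disulfide reductase that works with BiP, and was 13.3, 12.9, 15.8 and 13.5 TPM in Gclc WT mice, against 36.8, 31.5, 44.2 and 52.7 TPM in Gclc KO mice (log2 fold change 1.49, SE 0.16, adjusted p = 0.000644). This was a larger difference than in any of the 40 members, without overlap and with Gclc WT 1 among the others. Ppib, a prolyl isomerase, and Erp29, a folding factor of the ER lumen, followed with 0.50 and 0.64 (adjusted p = 0.0149 and 0.0162), and both lost their call without Gclc WT 2 (adjusted p = 0.0566 and 0.0513).

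Of 31 other N-glycosylation genes 8 were higher (5 without Gclc WT 2) and 0 lower (median 0.30). Shares over all genes were 12.8% higher and 8.61% lower, and 6.19% higher without Gclc WT 2. Stt3b and Stt3a, the alternative catalytic subunits of the oligosaccharyltransferase, rose with log2 fold changes of 1.15 (SE 0.14, adjusted p = 0.00116) and 0.84 (SE 0.14, adjusted p = 0.00500). Stt3b was 45.5, 37.1, 47.4 and 36.5 TPM in Gclc WT mice, against 89.1, 80.7, 90.8 and 115 TPM in Gclc KO mice, which did not overlap. Mcfd2, a subunit of a cargo receptor for secreted glycoproteins, rose by 0.86 (adjusted p = 0.00506). Of 28 other targeting and translocation genes 6 were higher and 1 lower (median 0.31). The 2 of 28 called higher without Gclc WT 2 were near the 6.19% of all genes. Smallest p-values were those of Srprb (1.03, adjusted p = 0.00786) and Srpr (0.57, adjusted p = 0.0131), the subunits of the receptor that brings ribosomes to the ER. Emc10 (0.57, adjusted p = 0.0216) of the ER membrane complex followed. Emc10 lost its call without Gclc WT 1, WT 2, WT 4, KO 1, KO 3 or KO 4 (adjusted p up to 0.0675).

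In the list of other degradation genes 8 of 30 were higher (4 without Gclc WT 2) and 0 lower (median 0.26), with Vimp (0.72, adjusted p = 0.00612), which links the ATPase p97 to the ER, the ubiquitin ligase Rnf185 (0.59, adjusted p = 0.00801) and Edem2 (0.78, adjusted p = 0.00809), which starts mannose trimming. Of 35 vesicle transport genes 14 were higher (4 without Gclc WT 2) and 2 lower (median 0.34). Both lists stand beside 12.8% of all genes called higher and 8.61% lower, and 6.19% higher without Gclc WT 2. The cargo receptor Surf4 rose by 0.70 (adjusted p = 0.00390) and the coat subunit Copg1 by 0.72 (adjusted p = 0.00665). Sar1b, the GTPase that starts the COPII coat and is needed for lipoprotein export, went the other way, from 188, 236, 164 and 193 TPM in Gclc WT to 125, 97.1, 108 and 129.8 TPM in Gclc KO mice (log2 fold change −0.75, SE 0.14, adjusted p = 0.00723).

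Of 22 other transducers and genes of the PERK arm 9 were higher (5 without Gclc WT 1 or WT 2) and 2 lower (median 0.46). Over all genes 12.8% were called higher and 8.61% lower. The share called higher was 8.35% without Gclc WT 1 and 6.19% without Gclc WT 2. Atf5, a transcription factor of the integrated stress response, was 94.3, 88.6, 143 and 133 TPM in Gclc WT mice, against 266, 203, 259 and 379 TPM in Gclc KO mice (log2 fold change 1.26, SE 0.22, adjusted p = 0.00513). Chac1, which encodes an enzyme that degrades glutathione, rose by 0.84 (adjusted p = 0.00897) and Creb3l2, a relative of ATF6, by 1.06 (adjusted p = 0.0134). Ddit3, which encodes CHOP and was looked at after these values were seen, was 8.33 ± 0.676 TPM in Gclc WT mice, against 6.81 ± 1.98 TPM in Gclc KO mice (mean ± SD, n = 4; log2 fold change −0.28, SE 0.17, adjusted p = 0.247).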

How the data were processed

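Liver RNA of 4 Gclc WT and 4 Gclc KO mice was sequenced in 4 libraries per mouse. The labels tell these apart by a batch number and a second number, and explain neither. The authors deposited 1 table of TPM per library and gene (20896 rows, 20821 symbols; 75 repeated rows were left out). Its libraries sum to 999315 to 999534 TPM, and 0 pairs were identical. Genes above 0 numbered 13280 to 14016 in libraries of batch 1 and 12341 to 13193 in those of batch 2. The submitters' processing notes name bcl2fastq 2.2, and the aligner, quantifier and genome build were not given in the sources used here.

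Libraries were averaged per mouse, the filter kept 11284 genes (mean over mice 1 TPM or more), and log2(TPM + 1) was compared between genotypes with limma 3.58.1 in R 4.3.3 (mean-variance trend, two-sided, no covariates, Benjamini-Hochberg adjustment over all genes tested, threshold 0.05). The model was run on simulated data with independent noise in each gene. The shared order of mice among members was not simulated, so that run does not bear on counts of members. Members and lists were chosen with earlier results of these data known. Per-mouse values are given for up to 4 members of each role with the smallest p-value and for Hspa5, Xbp1, Sec61a1, Herpud1, Calr, Ern1, Atf6, Eif2ak3 and Derl3, with Canx and Ddit3 added after their values were seen, and up to 3 genes with the smallest p-value are named from each further list. Promoter letters were searched on both strands in RefSeq sequence. Alternatives changed the filter, the pseudocount, the scaling, the model, the batches used and the mice included. Figures were drawn with matplotlib 3.10.9.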

Additional observations from a re-analysis of the deposited data

Results flagged for a closer look

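Among 98 groups of 4 mice checked, over Gclc, the members and the means of roles on the log2(TPM + 1) scale, 1 held a mouse that stood apart (1.02%; by chance about 5% of such groups would). This was Creld2 in Gclc WT, where Gclc WT 1 had 159.6 TPM and the other mice 38.0 to 45.3 TPM. Gclc WT 1 was also the mouse with exocrine pancreas transcripts (Amy2a5 at 131 TPM).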

How the results depend on the processing

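Of 22 alternatives, 14 changed the processing and 8 left out 1 mouse each. Members called higher numbered 20 to 35 under the former and 11 to 33 under the latter, and members called lower 0 throughout. The 35 came from 32 libraries with the mouse as a random effect, and the next highest was 30, with Xist as a covariate. That 32-library fit used 1 correlation among libraries of a mouse for all genes. The median SD among libraries was 0.18 over all genes and 0.071 over the members, against 0.20 and 0.24 among Gclc WT mice. P-values of members in this fit can therefore be too small. The median log2 fold change of the members stayed between 0.55 and 0.75 when a mouse was left out. Over all genes, leaving out a mouse gave 698 to 1851 higher and 557 to 950 lower genes, and scaling by a trimmed mean of M values gave 1474 lower genes. The further lists had 56 called genes, and 23 to 55 with a mouse left out. Their 93 calls in the fit of 32 libraries rest on the same single correlation. Single members kept direction and call in 496 of 559 fits that changed the processing and 251 of 320 that left out a mouse. Calls were lost in 37 and 58 fits and gained in 25 and 11. The 1 reversal was Herpud1, at 0.011 (adjusted p = 0.961) among mice without Xist, where fewer mice were used. Mice with the same number in both genotypes have nearby tags in the labels, which do not say whether the mice were paired. Their deviations from the genotype means correlated at r = 0.06, −0.12, 0.34 and 0.26. Between mice of different numbers the correlations ran from −0.36 to 0.22. So few values cannot decide on a pairing, and the main fit used none. A fit with the number as a replicate block called 21 members higher, without Hsp90b1, Pdia3, Sec61g, Spcs3 and Rpn2 (adjusted p = 0.0515 to 0.0844). A further fit split the mice into low and high tag numbers, a grouping that the labels do not name. With this split as a covariate 23 members were called, without Hyou1, Sec61g and Spcs3 (adjusted p = 0.0506 to 0.0576). Sequencing depth is unknown, and no counting limit can be given.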
